A study of Mus musculus with 12 samples.

Results

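The 44 genes described here encode the proteins that license, open and copy DNA in S phase, supply its nucleotides, rebuild chromatin behind the fork and switch on entry into S phase. They were chosen by name, for what the proteins are known to do, and matched to the count table by gene symbol. The choice was made with earlier results of these data known. All 44 matched a row among 56941, and all 44 were among the 13168 genes that passed the filter on low counts. The libraries are 12 RNA-seq libraries from C2C12 cells, a mouse myoblast line whose cells stop dividing and fuse into multinucleated myotubes in differentiation medium. In 6 wells the cells carried the genotype ChR2::tdTomato, that is channelrhodopsin, a light-gated cation channel, with the red fluorescent protein tdTomato, and the other 6 wells held the Wild-Type line. All wells were otherwise treated alike: the cells were seeded on a fibrin gel, kept for 2 days in growth medium with fetal bovine serum, and then differentiated over 6 days in a medium of horse serum, IGF-1 and aminocaproic acid. The labels name no light exposure. The promoter that drives the transgene, how it was introduced and whether the ChR2 line is 1 clone are not given in the sources used here. The labels do not say whether the wells of a line stand for independent cultures. The spread behind each p-value is therefore that between these wells, which may be technical, and line and genotype cannot be told apart.

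DNA replication is prepared in G1, when the origin recognition complex, CDC6 and CDT1 load the MCM helicase ring onto DNA, and the ring is switched on in S phase by CDC45 and the GINS complex. Polymerase alpha with its primase starts each strand, polymerases epsilon and delta extend it on the PCNA clamp loaded by the RFC complex, and FEN1 and DNA ligase I join the lagging-strand fragments. The genes for these proteins are known as targets of the E2F transcription factors, which are held back by the retinoblastoma family when myoblasts leave the cell cycle to differentiate. Myotube nuclei are post-mitotic, while a part of the cells in such a culture stays mononucleated and can go on dividing.

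Most of the 44 genes were higher in the ChR2 wells, by less than a doubling in the typical case, and one, E2f2, was clearly lower. Over all 12 libraries, 23 of 44 passed edgeR's quasi-likelihood test in the upward direction at a Benjamini-Hochberg adjusted p under 0.05, where 14.0% of all genes tested did. E2f2 was the 1 that passed downward, where 14.1% of all genes did, and 20 did not pass. The log2 fold change (ChR2 over wild type) was above 0 for 41 of the 44, with a median of 0.59 against -0.02 over all genes tested, of which 48.2% were above 0. Every ChR2 well lay above every wild-type well for 9 members, a pattern found in 8.57% of all genes, and below every wild-type well for 1, a pattern found in 6.52%. Because the libraries come from whole wells, fewer cells of a type and less RNA per cell cannot be told apart in any of these values.

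**Figure D1:**
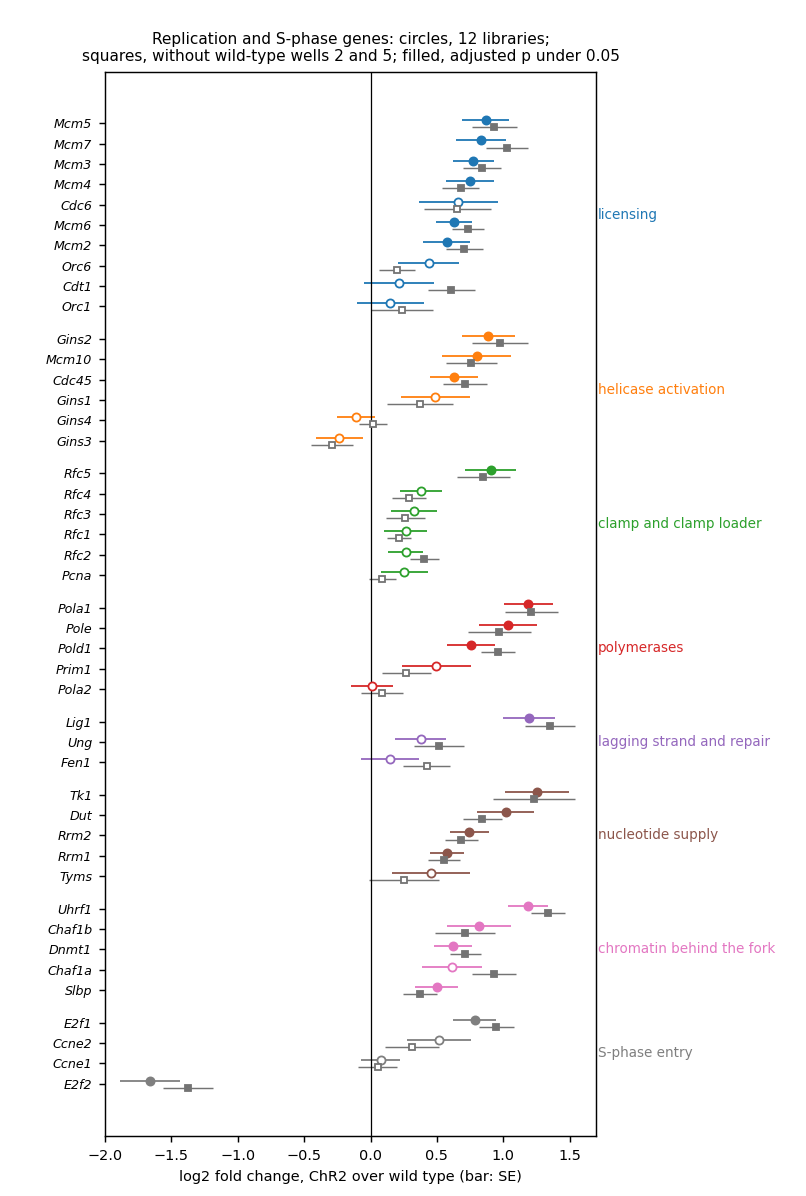
Log2 fold change (ChR2 over wild type) of each of the 44 genes, grouped by role, with bars of 1 SE. Circles are the fit over 12 libraries and squares the fit without wild-type wells 2 and 5, filled where the adjusted p is under 0.05; 41 of the 44 circles lie to the right of 0, and E2f2 lies alone at -1.66.

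The wild-type libraries differed among themselves in ways that touch every gene here. Total estimated counts were 1061070 in wild-type well 2 and 2809670 in wild-type well 5, against 7388760 to 13628600 in the other 10 libraries. Small untailed RNAs such as Rn7sk and Rmrp made up 27.1% of counts in well 2, 9.28% in well 5, and elsewhere at most 0.0414%, the value of ChR2 well 4. The labels say that low-input samples were depleted of ribosomal RNA instead of selected for poly(A), without saying which they were. In well 2 the median member had 10.5 counts, 6 members had fewer than 3 counts, and Cdc6 and Mcm10 had 0. The part of depth and RNA kind in the results was not tested. The fit without wells 2 and 5 is therefore plotted for every member, and given in words where a call or value moved. Of the marker lists for cell types, the 10 myotube markers summed to 13101 to 17333 CPM in ChR2 wells and to 12038 to 23639 in wild-type wells, CPM being a count scaled to a common library size by the TMM method. Single markers were called over 12 libraries (log2 fold change of ChR2 over wild type, edgeR), where 14.0% of all genes were called higher and 14.1% lower. Of the 10 myotube markers 0 were higher and 2 lower, the latter a count near that share. The 2 were Myog, at -0.84 with no overlap (adjusted p = 0.00219), and Ttn (adjusted p = 0.00601). Ttn was at 1033, 1179 and 2002 CPM in ChR2 wells and 1828, 2496 and 11495 in wild-type wells. The highest Ttn value was that of well 2, followed by 10798 CPM in well 5, and without those wells Ttn was lower by a change of -0.79 (adjusted p = 0.00386). In that fit, where 16.3% of all genes were called lower, Mymk was the third called lower, at -0.62 (adjusted p = 0.00121). The 6 myoblast markers summed to 1300 to 1363 and 1234 to 2236 CPM, with calls in both directions: Myf5 at 0.80 (adjusted p = 0.0266) and Vcam1 at 0.76 (adjusted p = 0.0365) were higher, and Cdh15 at -0.55 (adjusted p = 0.00919) was lower. Without wells 2 and 5 the Cdh15 call held (adjusted p = 0.0158) and those of Myf5 and Vcam1 did not (adjusted p = 0.0663 and 0.0973). The 5 endothelial, 4 adipocyte and 4 neuronal markers were each below 1 CPM in every well, Emcn, Rbfox3 and Snap25 at 0, and so were the macrophage markers Adgre1, Csf1r and Ptprc. Of 6 fibroblast markers, Thy1 and Lum were below 1 CPM, and the 6 summed to 2769 to 3392 CPM in ChR2 wells and 735 to 3197 in wild-type wells. Most of that sum was Col3a1, at 2232, 2390.2 and 2728 CPM (lowest, median and highest) in ChR2 wells and 482, 1246 and 2108 in wild-type wells, which was higher without overlap (0.86, adjusted p = 0.0341; 1.06, adjusted p = 0.0222 without wells 2 and 5), while Pdgfra, Dcn and Col1a1 did not pass. The part of differentiation state or of other cells in the results was not tested.

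Without wild-type wells 2 and 5, 27 members were higher, where 18.9% of 13484 genes tested were, and 1 was lower, where 16.3% were. The log2 fold change was above 0 for 42 of 44, with a median of 0.67 against -0.00 over all genes tested. The lines did not overlap for 17 members in the upward direction, as for 13.7% of all genes, and for 1 in the downward direction, as for 11.2%. The 4 members gained were Cdt1, Rfc2, Ung and Chaf1a, and no call was lost. On the deposited TPM (a transcript's share of its library per unit of length) with no further scaling, limma called 7 members higher and 0 lower over 12 libraries at a pseudocount of 1, with 27 higher and 1 lower at an unadjusted p under 0.05. Of all genes, 4.56% were called higher in that fit at the adjusted threshold. Their share at the unadjusted threshold is not given here, so the unadjusted counts cannot be read as particular to the members. On that scale the median log2 fold change of all genes moved to 0.35, and 95.5% of all calls were upward, against 49.7% in the count fit. Summed over the 44 members, TPM was 157 in well 2 and 482 in well 5, against 731 to 926 in the other 4 wild-type wells and 887 to 1312 in the ChR2 wells. Without wells 2 and 5 the TPM fit called 21 members higher and 1 lower, and the share of all genes called in that fit is not given here.

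The stretch of DNA around the gene start is shown for 3 members picked with the help of an E2F motif. They had the smallest p among the called members of licensing, of lagging-strand joining and repair, and of S-phase entry, and held the motif. In nucleotide supply the called member of smallest p, Tk1, held no such motif and is not shown. The 44 members were chosen by name, without use of the motif, and it was found in 15 of the 37 members with a window. RefSeq promoter windows of 300 bases (250 before the gene start and 50 from it, build GRCm38.p6) were found for 37 of the 44. Some genes have several windows, at different annotated starts, and a gene was counted if any of its windows held a match. The motif searched was an E2F site spelled TTTCCCGC, TTTCGCGC, TTTGCCGC or TTTGGCGC, on both strands, and 2 such matches can overlap. Mcm3 (chr1:20820263-20820562, minus strand) holds it on both strands, at bases 20 to 27 and 39 to 46 counted from 1 at the gene start. Lig1 (chr7:13278576-13278875, plus strand) holds it at bases 27 to 34, and E2f2 (chr4:136172024-136172323, plus strand) at bases 40 to 47. Both Lig1 and E2f2 also have windows at other annotated starts, which held no E2F match and are not shown. The windows are given in the direction of the gene, with the matches in capitals.
Mcm3: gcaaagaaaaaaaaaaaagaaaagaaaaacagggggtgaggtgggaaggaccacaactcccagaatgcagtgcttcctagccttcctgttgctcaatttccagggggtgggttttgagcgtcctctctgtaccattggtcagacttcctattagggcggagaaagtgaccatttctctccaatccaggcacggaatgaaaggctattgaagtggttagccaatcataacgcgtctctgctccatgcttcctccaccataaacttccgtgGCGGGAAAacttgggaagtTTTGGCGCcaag
Lig1: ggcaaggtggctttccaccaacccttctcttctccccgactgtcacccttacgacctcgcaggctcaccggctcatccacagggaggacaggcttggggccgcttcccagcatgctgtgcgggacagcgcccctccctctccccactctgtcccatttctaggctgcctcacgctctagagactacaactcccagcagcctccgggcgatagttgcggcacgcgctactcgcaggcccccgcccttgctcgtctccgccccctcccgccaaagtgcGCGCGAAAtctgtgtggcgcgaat
E2f2: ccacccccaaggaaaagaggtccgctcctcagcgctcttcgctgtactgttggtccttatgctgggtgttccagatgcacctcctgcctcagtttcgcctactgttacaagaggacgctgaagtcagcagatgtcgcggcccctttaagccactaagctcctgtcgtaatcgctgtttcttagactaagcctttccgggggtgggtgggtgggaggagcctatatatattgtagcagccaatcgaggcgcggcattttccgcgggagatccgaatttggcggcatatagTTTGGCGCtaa
The first 2 of these genes were higher in ChR2 wells and E2f2 was lower, so a match of these letters near the start occurred with both directions.

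Among the 37 members with a window, 15 (40.5%) held an E2F match, against 704 of 27025 genes (2.60%) and 744 of 32851 promoter windows (2.26%). Matches were in 9 of the 20 members that rose and have a window, and in 5 of the 16 that did not pass. Beside the 3 shown, they were in the windows of Orc1, Cdc6, Cdt1, Mcm5, Mcm6, Mcm7, Gins3, Rfc3, Pola1, Pold1, Uhrf1 and Dnmt1. Among 22 mitosis genes with a window, used as a comparison, 1 (4.55%) held an E2F match. The order was the opposite for the CHR element TTTGAA, a motif known from genes of the later cell cycle: 6 of 37 members (16.2%) and 17 of 22 mitosis genes (77.3%) held it, against 20.2% of genes and 17.9% of promoter windows. The CCAAT box CCAAT was in 22 of 37 members (59.5%), 18 of 22 mitosis genes (81.8%), 41.1% of genes and 37.4% of promoter windows. A match is a description of letters in the window, and a window without one says nothing about binding.

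**Figure D2:**
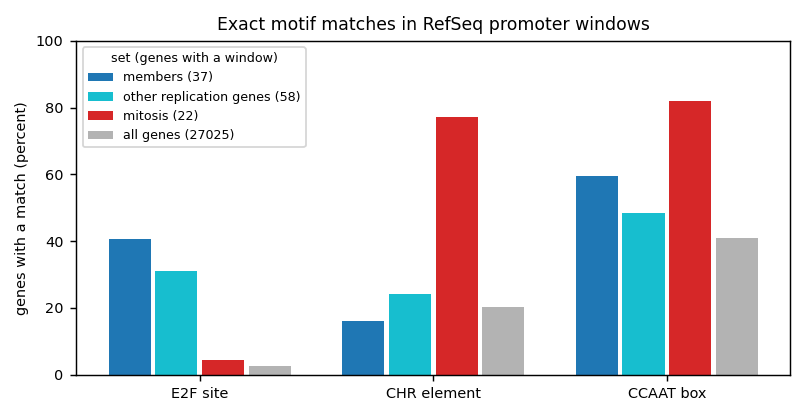
Percent of genes with an exact match of each motif, on either strand, in any of their RefSeq promoter windows, for 37 members, 58 other replication genes, 22 mitosis genes and 27025 genes in all. E2F matches are in 40.5% of members and 4.55% of mitosis genes, and CHR matches in 16.2% and 77.3%.

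Of the 10 licensing genes, 6 rose, and they were the 6 subunits of the MCM2-7 helicase ring. Mcm3, a ring subunit and the licensing gene with the smallest p, was at 32.3, 39.0 and 49.7 CPM in the ChR2 wells (lowest, median and highest of 6, in this order here and below) and at 17.0, 22.3 and 31.0 CPM in the wild-type wells. Every ChR2 well lay above every wild-type well (change 0.77 ± 0.16, adjusted p = 0.00252; 0.84 without wells 2 and 5); here and below a change is the log2 fold change of ChR2 over wild type ± SE, with its adjusted p from the edgeR fit. Mcm5, another subunit, had the largest change of the role, from 13.1, 17.6 and 24.3 CPM in wild-type wells to 25.1, 35.4 and 42.0 CPM in ChR2 wells (change 0.87 ± 0.18, adjusted p = 0.00259), again with no overlap. Mcm4 was the third without overlap, at 31.0 to 53.3 CPM against 9.17 to 29.3 (change 0.75 ± 0.18, adjusted p = 0.00729). For Mcm2, Mcm6 and Mcm7 a single wild-type library, well 5, reached into the ChR2 range. It held 54.2 CPM of Mcm7 where wild-type wells 1, 3, 4 and 6 held 24.2 to 34.3 and the ChR2 wells 45.3 to 73.8 (change 0.83 ± 0.19, adjusted p = 0.00475; 1.03 without wells 2 and 5). Mcm6 was at 53.0 to 78.7 against 38.8 to 45.3 CPM in wild-type wells 1, 3, 4 and 6 (change 0.63 ± 0.13, adjusted p = 0.00329). Mcm2 was at 33.7 to 45.4 against 18.9 to 32.5 CPM in the same wells (change 0.57 ± 0.18, adjusted p = 0.0254), and leaving out ChR2 well 1 or 3 or wild-type well 1 or 4 ended its call (adjusted p at most 0.0581). The log2 fold changes of the 6 subunits lay between 0.57 and 0.87 over 12 libraries and between 0.68 and 1.03 over 10, while the SE of a single subunit was 0.13 to 0.19 over 12. Per length, the subunits had mean levels of 16.4 TPM (Mcm2) to 38.3 TPM (Mcm7) in the ChR2 wells and of 9.84 TPM (Mcm5) to 19.7 TPM (Mcm7) in wild-type wells 1, 3, 4 and 6.

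The 4 genes whose products load the ring did not pass the test over 12 libraries. Cdc6, an ATPase of the loading reaction, was at 5.30, 8.22 and 10.6 CPM in ChR2 wells and 0, 5.78 and 6.78 in wild-type wells, where the 0 came from well 2 (change 0.66 ± 0.30, adjusted p = 0.111). Orc6, a small subunit of the origin recognition complex, was at 51.6, 56.1 and 67.4 against 15.7, 44.8 and 69.2 CPM, with wild-type well 6 above every ChR2 well (change 0.44 ± 0.23, adjusted p = 0.167). Leaving out well 6 alone brought Orc6 past the threshold, at an adjusted p of 0.0289. Orc1, the ATPase subunit of the same complex, had the smallest change of the role, at 2.96, 3.86 and 4.40 against 1.31, 3.23 and 5.35 CPM (change 0.15 ± 0.25, adjusted p = 0.701). The lines overlapped for each of the 4, and only Cdt1, the partner of CDC6 in loading, changed its call without wells 2 and 5. It was at 8.16, 12.9 and 15.5 CPM in ChR2 wells and at 7.04, 9.11 and 20.0 CPM in wild-type wells (change 0.21 ± 0.26, adjusted p = 0.581), and wells 2 and 5 held its highest wild-type values. In the other 4 wild-type wells it was at 7.04 to 9.77 CPM, and over 10 libraries it rose by 0.61 on the log2 scale (SE 0.18, adjusted p = 0.0163).

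Among the 6 genes of helicase activation, 3 rose and the 4 GINS subunits did not move alike. Cdc45, which joins the ring and GINS into the active helicase, was at 13.4, 17.7 and 22.5 CPM in ChR2 wells and 7.86, 10.4 and 16.4 in wild-type wells (change 0.63 ± 0.18, adjusted p = 0.0184), with overlap through wild-type wells 5 and 6. Mcm10, a factor needed to activate the helicase, was at 6.38, 10.0 and 12.9 against 0, 5.79 and 6.78 CPM (change 0.80 ± 0.26, adjusted p = 0.0309), and leaving out any of ChR2 wells 1 to 4, wild-type well 1 or wild-type well 3 ended its call (adjusted p at most 0.0778). Without wells 2 and 5 Mcm10 kept its call (change 0.76 ± 0.19, adjusted p = 0.00760). Gins2, a GINS subunit, had the smallest p of the role, with 11.2, 14.9 and 21.7 CPM in ChR2 wells above all wild-type wells at 6.12, 8.73 and 10.7 (change 0.89 ± 0.20, adjusted p = 0.00478). Gins3 was at 9.54, 13.3 and 16.9 CPM in ChR2 wells and 7.86, 15.7 and 17.5 in wild-type wells, with overlapping lines (change -0.24 ± 0.18, adjusted p = 0.335). Its fold change was positive on the TPM scale over 12 libraries, where the median of all genes stood at 0.35 at a pseudocount of 1. Its mean level was 7.23 TPM in ChR2 wells and 9.32 TPM in wild-type wells 1, 3, 4 and 6. Gins4 was at 27.2, 27.8 and 38.2 against 29.2, 30.0 and 51.1 CPM, its highest value being well 2 (change -0.11 ± 0.14, adjusted p = 0.595). The sign of Gins4 turned positive on the same TPM scale and without well 2, while its mean level was 32.6 TPM in ChR2 wells and 34.3 TPM in wild-type wells 1, 3, 4 and 6. Gins1 was at 3.15, 4.09 and 5.18 against 1.31, 2.48 and 4.47 CPM (change 0.49 ± 0.26, adjusted p = 0.172), the lowest of the 4 per length at 6.03 TPM in ChR2 wells, where Gins4 had 32.6. Of the 6 genes, Gins2 alone separated the lines, over 12 libraries and over 10.

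The uneven GINS result was examined within wells, as the ratio of Gins2 to Gins3 counts in the same library, which no scaling between libraries can change. This ratio was 0.795, 1.23 and 1.53 in ChR2 wells and 0.384, 0.547 and 1.31 in wild-type wells, the highest of which was well 2, while the 4 wells without 2 and 5 ran from 0.384 to 0.614. The pair was picked after its values were seen, so the ratio is a description with no test. The exons of Gins2 and of Gse1 on the opposite strand share up to 2758 bases in the GENCODE annotation, so that reads of the pair cannot be told apart if the library kept no strand. In all, 15 of the 44 members share exon sequence with another annotated gene, on the opposite strand except for the microRNAs Mir25 and Mir93 within Mcm7. Gse1 itself did not pass (log2 fold change -0.08, adjusted p = 0.79 in edgeR). A value of the overlapping gene is given here only for Gins2 and, below, Chaf1a, the members with the longest overlaps. The other members, such as Fen1 with up to 1909 bases shared with Gm10143, are left without one.

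Of the 6 genes of the clamp and its loader, 1 rose over 12 libraries, a share near the 14.0% of all genes called higher. Over 10 libraries 2 rose, where 18.9% of all genes did. Pcna, the sliding clamp that holds polymerases and many repair factors on DNA, was at 97.4, 114 and 131 CPM in ChR2 wells and 41.9, 99.7 and 117 in wild-type wells (change 0.25 ± 0.18, adjusted p = 0.307). The lines overlapped widely, and without wells 2 and 5 the difference was 0.09 (SE 0.10). Mean Pcna levels were 109.9 ± 14.9 TPM in ChR2 wells (SD, n = 6) and 109.8 ± 15.5 TPM in wild-type wells 1, 3, 4 and 6 (SD, n = 4). A processed copy, Pcna-ps2, has a row of its own with 7.43 to 263 counts and did not pass either (log2 fold change 0.04, adjusted p = 0.901); how reads shared by both were split between the rows is uncertain. Rfc5, a small loader subunit, was the member that rose, at 14.3, 21.1 and 25.6 against 8.89, 9.36 and 16.6 CPM (change 0.90 ± 0.19, adjusted p = 0.00334). Its lines touched only through wild-type well 6. Rfc2, another small subunit, was at 27.7, 31.1 and 38.5 against 22.1, 26.0 and 36.7 CPM (change 0.26 ± 0.13, adjusted p = 0.157) and passed without wells 2 and 5, where the lines separated (change 0.40 ± 0.11, adjusted p = 0.0118), as it did without well 2 alone. The large subunit Rfc1 was at 45.2, 52.4 and 59.0 against 18.3, 45.5 and 51.4 CPM, its lowest value in well 2 (change 0.26 ± 0.16, adjusted p = 0.233). Rfc3 was at 19.2, 25.5 and 33.0 against 9.17, 20.6 and 24.1 CPM (change 0.32 ± 0.17, adjusted p = 0.176). Rfc4 was at 15.1, 17.2 and 19.4 against 7.85, 12.9 and 17.2 CPM (change 0.38 ± 0.16, adjusted p = 0.0815) and passed when wild-type well 6 was left out, at an adjusted p of 0.0252. No gene of this role separated the lines over 12 libraries. All 5 loader subunits had fold changes above 0, from 0.26 to 0.90, and the clamp and loader genes that missed the threshold are not shown to be equal between the lines.

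Of the 5 polymerase and primase genes, the 3 catalytic polymerase subunits rose. Pola1, the catalytic subunit of polymerase alpha, was at 16.5, 26.0 and 28.3 CPM in ChR2 wells and 7.29, 10.6 and 14.7 in wild-type wells. No wild-type well reached any ChR2 well, and the change was the largest of the role (change 1.19 ± 0.19, adjusted p = 0.000522; 1.21 without wells 2 and 5). Pole, the catalytic subunit of the leading-strand polymerase epsilon, was at 17.2, 24.3 and 29.4 against 6.55, 9.83 and 19.3 CPM (change 1.04 ± 0.22, adjusted p = 0.00341), and wild-type well 6, at 19.3 CPM, was the only one inside the ChR2 range. Pold1, the catalytic subunit of the lagging-strand polymerase delta, was at 18.1, 22.4 and 23.6 against 9.30, 11.8 and 22.1 CPM (change 0.76 ± 0.18, adjusted p = 0.00755), here with well 5 inside the ChR2 range and none of the other 5 wells. Pola2, the regulatory subunit bound to POLA1, was at 18.9, 25.1 and 26.8 against 15.4, 24.3 and 28.5 CPM (change 0.01 ± 0.16, adjusted p = 0.976), with overlapping lines and a sign that changed on leaving out single wells. Prim1, the primase subunit that makes the RNA primer, was at 19.9, 24.6 and 33.1 against 3.93, 17.8 and 30.1 CPM (change 0.49 ± 0.26, adjusted p = 0.168), also overlapping, and passed without wild-type well 6, at an adjusted p of 0.0305. Within the polymerase alpha complex the log2 fold changes ran from 0.01 for Pola2 to 1.19 for Pola1. Per length, Pola1 had 5.94 ± 1.38 TPM in ChR2 wells and 2.69 ± 0.719 TPM in wild-type wells 1, 3, 4 and 6 (SD, n = 6 and 4), and Pola2 had 19.7 ± 3.60 and 24.2 ± 8.55 TPM.

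In lagging-strand joining and repair, Lig1 rose and its partner Fen1 did not pass. Lig1, the ligase that seals Okazaki fragments and whose promoter window is printed above, was at 23.1, 34.3 and 37.1 CPM in ChR2 wells and 8.55, 14.9 and 19.6 in wild-type wells. The lowest ChR2 well lay above the highest wild-type well (change 1.19 ± 0.20, adjusted p = 0.000712; 1.35 without wells 2 and 5). Fen1, the nuclease that trims the fragments before ligation, was at 15.4, 22.0 and 27.6 against 13.8, 19.0 and 32.8 CPM, with its highest value in well 2 (change 0.15 ± 0.22, adjusted p = 0.654; adjusted p = 0.0755 without wells 2 and 5). Ung, the glycosylase that removes uracil from DNA, was at 6.29, 7.83 and 9.28 against 3.60, 6.35 and 8.21 CPM (change 0.38 ± 0.19, adjusted p = 0.156) and passed over 10 libraries (change 0.51 ± 0.19, adjusted p = 0.0433), with the lines overlapping in both.

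Of the 5 genes of nucleotide supply, 4 rose. Tk1, the thymidine kinase of the salvage route, had the largest rise of the 44 members over 12 libraries, from 11.3, 15.5 and 33.0 CPM in wild-type wells to 32.0, 40.8 and 59.2 CPM in ChR2 wells (change 1.25 ± 0.24, adjusted p = 0.00197). Its overlap came from wild-type well 6 alone, at 33.0 CPM against 32.0 CPM in the lowest ChR2 well. Rrm2, the S-phase subunit of ribonucleotide reductase and the member with the highest level, was at 238, 299 and 311 against 113, 174 and 214 CPM with no overlap (change 0.74 ± 0.15, adjusted p = 0.00237). Its mean level was 184 ± 30.4 TPM in ChR2 wells and 123 ± 28.7 TPM in wild-type wells 1, 3, 4 and 6 (SD, n = 6 and 4). Rrm1, the large subunit of the same enzyme, was at 77.8, 97.5 and 103 against 51.9, 60.7 and 78.3 CPM (change 0.57 ± 0.12, adjusted p = 0.00397), its lines meeting at 77.8 and 78.3 CPM. Dut, which keeps dUTP out of DNA, was at 32.5, 41.3 and 52.7 against 5.24, 20.6 and 29.5 CPM with no overlap (change 1.02 ± 0.21, adjusted p = 0.00329). Tyms, thymidylate synthase of the de novo route, was at 14.2, 22.5 and 30.5 against 2.62, 14.3 and 27.9 CPM, with well 2 lowest and well 6 highest, and did not pass (change 0.45 ± 0.29, adjusted p = 0.264). The kinase and the synthase, which both deliver dTMP, thus stood at 1.25 and 0.45 on the log2 scale, and the difference between them was not tested.

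Among the 5 genes that act on chromatin behind the fork, 4 rose over 12 libraries and 5 over 10. Uhrf1, which reads half-methylated DNA and brings the maintenance methyltransferase to it, had the smallest p of all 44 members. It was at 40.1, 53.6 and 55.7 CPM in ChR2 wells and 17.5, 22.3 and 32.5 in wild-type wells, with no overlap (change 1.18 ± 0.15, adjusted p = 0.000143; 1.34 without wells 2 and 5, adjusted p = 1.14e-05). Dnmt1, that methyltransferase, was at 51.4, 67.8 and 70.5 against 31.7, 40.5 and 57.4 CPM (change 0.62 ± 0.14, adjusted p = 0.00526) and separated fully without wells 2 and 5. Chaf1a, the large subunit of the chromatin assembly factor that places new histones, was at 23.6, 33.8 and 37.4 CPM in ChR2 wells and 13.5, 19.2 and 35.3 in wild-type wells (change 0.61 ± 0.22, adjusted p = 0.0531). Its adjusted p lay just above the threshold over 12 libraries, and it passed without ChR2 well 6, wild-type well 2 or wild-type well 5, the last holding 35.3 CPM. Over 10 libraries its lines separated (change 0.93 ± 0.17, adjusted p = 0.000980). Chaf1b, its partner subunit, was at 5.92, 8.82 and 10.4 against 1.31, 3.92 and 7.19 CPM (change 0.81 ± 0.24, adjusted p = 0.0211), a call that ended without ChR2 well 2 or wild-type well 1 (adjusted p at most 0.0512). Slbp, which binds the stem-loop of replication-dependent histone mRNAs, was at 29.0, 36.0 and 42.1 against 14.4, 25.5 and 30.5 CPM (change 0.50 ± 0.16, adjusted p = 0.0314), a call that ended when any of ChR2 wells 1 to 4, wild-type well 4 or wild-type well 5 was left out (adjusted p at most 0.0739). Both overlapped between the lines. The exons of Chaf1a share up to 2542 bases with Ubxn6 on the opposite strand, and Ubxn6 did not pass (log2 fold change -0.18, adjusted p = 0.445).

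The 4 genes of S-phase entry went in different directions, with the E2F factors at the extremes. E2f2 was at 12.9, 20.1 and 24.6 CPM in ChR2 wells and at 36.5, 54.4 and 94.9 CPM in wild-type wells. The lowest wild-type well, 4, lay above the highest ChR2 well, 1, and the largest wild-type values were those of wells 5 and 2 (change -1.66 ± 0.23, adjusted p = 0.000206; -1.37, SE 0.19, adjusted p = 0.000229 without them). E2f1, which like E2f2 is classed as an activator of S-phase genes, was at 25.0, 28.8 and 32.4 CPM in ChR2 wells and 11.2, 16.8 and 27.5 in wild-type wells (change 0.79 ± 0.16, adjusted p = 0.00297). Its overlap came from well 2, and without wells 2 and 5 the wild-type wells at 11.2 to 17.3 CPM lay below all ChR2 wells (change 0.95 ± 0.13, adjusted p = 0.000170). Within a well, E2f1 counts were 1.12, 1.61 and 2.10 times the E2f2 counts in ChR2 wells and 0.208, 0.296 and 0.474 times in wild-type wells. These ranges did not overlap, and the lengths of both genes drop out of a comparison of one ratio between lines. This pair too was picked after its values were seen, and its ratio is given with no test. Ccne1, the first of the E cyclins that drive CDK2 at the G1/S boundary, was at 12.4, 13.8 and 17.4 against 11.5, 12.1 and 16.4 CPM (change 0.08 ± 0.15, adjusted p = 0.740). Ccne2, the other E cyclin, was at 31.8, 33.7 and 45.7 against 12.1, 23.2 and 46.5 CPM, with wild-type well 6 the highest of all 12 (change 0.52 ± 0.24, adjusted p = 0.124). Both E cyclins overlapped between the lines, and Ccne2 passed without well 6, at an adjusted p of 0.00561.

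**Figure D3:**
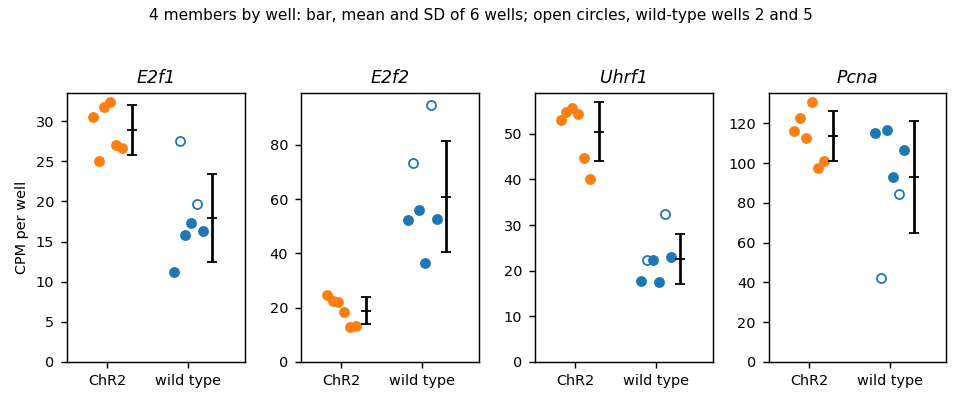
CPM in each of the 12 wells for E2f1, E2f2, Uhrf1 and Pcna, with the mean and SD of 6 wells beside the points and wild-type wells 2 and 5 as open circles. E2f2 is lower in every ChR2 well, Uhrf1 is higher in every ChR2 well, E2f1 overlaps through well 2 only, and the Pcna values of the lines overlap.

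The wells of a line were not alike. Each well was placed by the median over the 44 members of log2(CPM + 0.5) minus the gene's mean over the 10 libraries without wild-type wells 2 and 5. ChR2 wells 1 to 4 stood at 0.33, 0.34, 0.33 and 0.47, and ChR2 wells 5 and 6 both at -0.02. Wild-type wells 1, 3, 4 and 6 stood at -0.50, -0.25, -0.51 and -0.08, and wells 2 and 5 at -0.78 and -0.13. The lowest ChR2 wells thus stood only just above wild-type well 6 on this scale. ChR2 well 4 was the highest ChR2 well for 23 of the 44 members, and wells 6 and 5 were the lowest for 23 and 17. Without wells 2 and 5, wild-type well 6 was the highest wild-type well for 30 members, and well 4 was the lowest for 24.

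**Figure D4:**
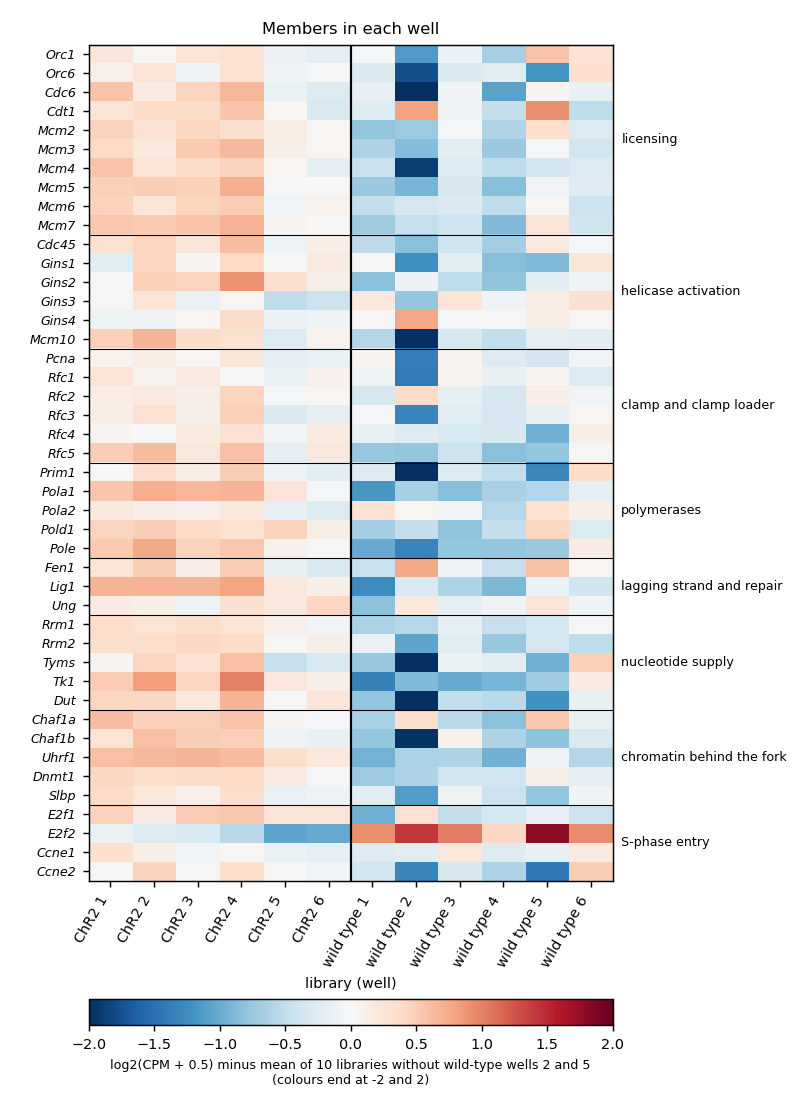
Each of the 44 genes (rows, by role) in each of the 12 wells (columns), as log2(CPM + 0.5) minus the mean of the 10 libraries without wild-type wells 2 and 5, with colours ending at -2 and 2. ChR2 wells 1 to 4 are red for most genes, wild-type well 2 holds the deepest blues, and the E2f2 row is red in the wild-type wells and blue in the ChR2 wells.

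On this scale wild-type well 6 was the wild-type library nearest to the ChR2 wells. It lay at or above the lowest ChR2 well for 24 of 44 members and at or above the ChR2 mean for 12. Against the mean of wild-type wells 1, 3 and 4 it held 2.43 times as much Tk1 (33.0 against 13.6 CPM), 2.07 times as much Pole, 1.91 times as much Ccne2 and 1.79 times as much Tyms. It was not higher for all members: its ratio was 0.857 for Rfc1, 0.830 for Cdt1 and 0.901 for Rrm2. A comparison without wells 2, 5 and 6, added after the data were seen, called 32 members higher, where 19.3% of all genes were, and 1 lower. One without ChR2 well 4 and wild-type wells 2 and 5 called 25 higher, where 17.4% of all genes were, and 1 lower. Well 6 had the largest total count, 13628600, and the largest share of mitochondrially encoded RNA, 4.52% against 0.139% to 3.26% in the other 11 libraries; the part of either in its values was not tested.

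Of 72 further replication genes outside the 44, all were tested, and 31 rose and 3 fell, against 14.0% and 14.1% of all genes, with a median log2 fold change of 0.38. This list too was chosen with earlier results of these data known. Origin firing moved most often, with 7 of 8 higher: Dbf4, the activator of the CDC7 kinase, rose by 1.17 on the log2 scale (SE 0.18, adjusted p = 0.000566) and Mtbp, a partner of the firing factor TICRR, by 1.06 (SE 0.19, adjusted p = 0.00106). At the fork 10 of 22 rose, led by Prim2, the large primase subunit (change 1.17 ± 0.17, adjusted p = 0.000364), and Timeless, of the fork protection complex (change 1.22 ± 0.20, adjusted p = 0.000619). In licensing and its control only Mcm8, an MCM relative outside the ring, rose among 8 (change 0.95 ± 0.22, adjusted p = 0.00561). That count is near the 14.0% of all genes called higher, and Orc2 to Orc5 did not pass. Over 10 libraries Orc2 fell (change -0.43 ± 0.11, adjusted p = 0.00951). Of 9 genes of nucleotide supply 2 rose, Dck, a deoxynucleoside kinase (change 1.10 ± 0.15, adjusted p = 0.000214), and Samhd1, which breaks down dNTPs (change 0.51 ± 0.17, adjusted p = 0.0330). In chromatin 5 of 8 rose, among them Atad2 (change 1.01 ± 0.20, adjusted p = 0.00238) and Ssrp1, a subunit of the histone chaperone FACT (change 0.46 ± 0.13, adjusted p = 0.0143).

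The S-phase control genes among these 72 numbered 17, of which 6 were higher and 3 lower, the latter a share near the 14.1% of all genes called lower. Ccna2, the cyclin of S phase and G2, was at 81.8, 108 and 115 CPM in ChR2 wells and 14.4, 27.9 and 59.8 in wild-type wells, without overlap (change 1.65 ± 0.25, adjusted p = 0.000430). Cks1b, a small CDK-binding protein, rose too (change 1.32 ± 0.22, adjusted p = 0.000863). The 3 that fell were E2f6 (change -0.68 ± 0.15, adjusted p = 0.00428), E2f4 (change -0.51 ± 0.13, adjusted p = 0.0101) and the pocket protein gene Rbl2 (change -0.32 ± 0.11, adjusted p = 0.0456), the last named after its values were seen. Over 10 libraries the genes that fell among the 72 numbered 5, the same 3 with Orc2 and Top1.

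Mitosis genes set the scale for a stronger difference in the same wells. All 25 of a list of mitosis genes rose, where 14.0% of all genes did, with a median log2 fold change of 1.60 (1.28 to 2.02). Every ChR2 well lay above every wild-type well for 22 of them, as for 8.57% of all genes. The list was chosen with earlier results of these data known. The 25 were led by Ube2c, which tags mitotic proteins for destruction (change 2.02 ± 0.22, adjusted p = 4.02e-05), and Anln, a scaffold of the cleavage furrow (change 1.97 ± 0.22, adjusted p = 5.01e-05). The lowest of the 25 lay above the highest of the 44 replication members, Tk1 at 1.25, over the 12 libraries, but not without wells 2 and 5, where Cdk1 at 1.16, Cenpa at 1.19 and Ttk at 1.21 lay below Lig1 at 1.35, Uhrf1 at 1.34 and Tk1 at 1.23. On the well scale above, the mitosis median was 0.46 to 0.83 in ChR2 wells and -1.55, -1.16 and -1.27 in wild-type wells 1, 3 and 4, while wild-type well 6 stood at -0.05. ChR2 wells 5 and 6, at the level of wild-type well 6 for the replication genes, stood at 0.50 and 0.46 for the mitosis genes. The 2 lists share these libraries, and the difference between them was not tested.

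**Figure D5:**
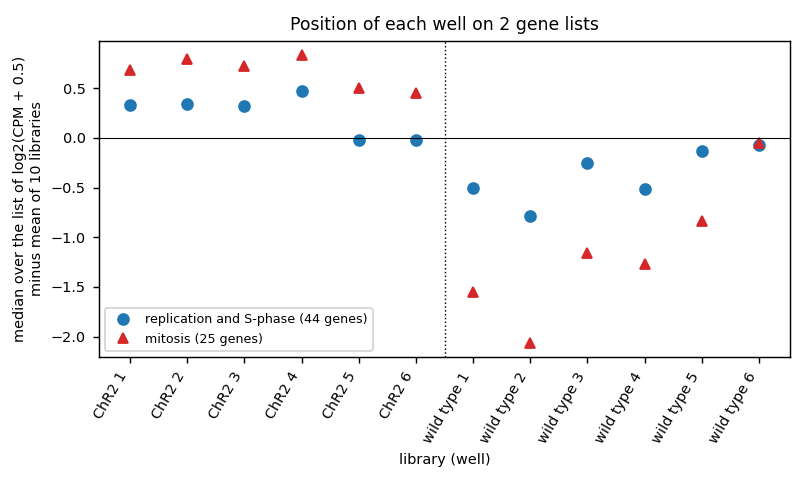
Position of each well as the median over 44 replication genes (circles) or 25 mitosis genes (triangles) of log2(CPM + 0.5) minus the gene's mean over 10 libraries. The lists lie close together in wild-type well 6 and apart in the other wells, with mitosis genes farther from 0.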

How the data were processed

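RNA from 12 wells, 6 per line, was sequenced as paired reads of 50 bases, per the labels' protocols. The authors deposited estimated counts per gene, and the deposited TPM values give, for the same 56941 genes, each one's share of transcripts per unit of length. The submitters' processing notes name STAR, Salmon, bedtools 2.25.0 and BWA 0.7.12-r1039, and the builds mm10, hg19 and GRCm39, with no role for any. The sources used here do not say which libraries were ribodepleted or whether reads kept their strand. Sequences come from RefSeq windows on GRCm38.p6 and exon overlaps from GENCODE annotation of that assembly.

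Estimated counts were rounded to whole numbers and fitted with edgeR 4.0.16 in R 4.3.3: filterByExpr with a minimum count of 10, TMM scaling, the robust quasi-likelihood test, and Benjamini-Hochberg adjustment over all genes tested. SE is the log2 fold change divided by the square root of its F statistic. The steps were tested on simulated data. Library totals ran from 1061070 to 13628600 counts, so well 2 gives low counts little precision. No pair of libraries of a line agreed within sampling noise (lowest chi-square per degree of freedom 5.09 over 30 pairs). Ratios within a well are descriptions with no test.

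The members and the lists were chosen with earlier results of these data known. Named with per-well values were, in each role, the members of smallest p and of largest and smallest fold change, each member not called, and each whose call differed without wild-type wells 2 and 5. Of the further replication genes, the 2 called genes of smallest p in each role and direction were named, of the mitosis list the 2 of smallest p, and of the inhibitors and D cyclins all that were tested. Alternatives were DESeq2 1.42.0, its size factors, upper-quartile scaling, limma 3.58.1 (voom with quality weights, or log2 TPM plus 1 or 0.1), other filters, a replicate block and leaving out libraries.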

Additional observations from a re-analysis of the deposited data

Results flagged for a closer look

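For each of the 44 members the 6 wells of each line were examined for a single value far from the rest, as the gap from the extreme well to its nearest neighbour over the whole range of the line. Of 88 groups of 6, 11 had a gap ratio above 0.625, and chance alone marks about 1 group in 20. Wild-type well 2 stood apart for 4 members: Mcm4 at 9.17 CPM, with the next wild-type well at 24.8, Mcm10 at 0 CPM with the next at 5.04, Rfc1 at 18.3 CPM with the next at 40.6, and Gins4 at 51.1 CPM, here above the next at 32.1. Wild-type well 5 stood above its line for 4 members: Mcm6 at 56.4 CPM (next 45.3), Mcm7 at 54.2 CPM (next 34.3), Pold1 at 22.1 CPM (next 13.6) and Uhrf1 at 32.5 CPM (next 23.0). Wild-type well 6 stood above its line for Tk1, at 33.0 CPM (next 17.5), and for Pole, at 19.3 CPM (next 9.99). ChR2 well 4 stood above its line for Gins4, at 38.2 CPM (next 30.4). Among the marked wild-type values only those of Tk1 and Pole were in well 6, which had full depth and a low share of RNA without a poly(A) tail. The others were in wells 2 and 5, and the part of depth and RNA kind in the marked values was not tested.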

How the results depend on the processing

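The 23 members higher over 12 libraries, where 14.0% of all genes were, numbered 23 with DESeq2 size factors, where 14.4% were. They numbered 24 with upper-quartile scaling (16.2% of all genes) and with the DESeq2 test (13.7%), and 26 with limma voom (21.3%). The filter at 1 CPM in 6 libraries kept the same 13168 genes. On TPM over 12 libraries, limma called 7 members higher at a pseudocount of 1, 0 at 0.1 and 1 with no filter. Of all genes, 4.56%, 1.96% and 1.51% were called higher in these fits. Members called lower numbered 0, 0 and 0 (1 in the count fit). At an unadjusted p under 0.05 the same fits gave 27, 24 and 25 members higher and 1 lower each, with no share of all genes at that threshold given here. The median of all genes then stood at 0.35, 0.43 and 0.08, and 95.5%, 93.7% and 94.6% of all calls were upward. Without wild-type wells 2 and 5 the TPM fit gave 21, with no share of all genes given here. Leaving out 1 library gave 20 to 27 members higher over 12 libraries and 24 to 32 over 10, the most without wild-type well 6, and 1 lower each time. Among the 72 other genes it gave 25 to 36 higher and 2 to 4 lower, and without wells 2 and 5 there were 5 lower, where 16.3% of all genes were. The 32 came without wells 2, 5 and 6, where 19.3% of all genes were called higher. For the other fits that left out 1 library that share is not given here, so moves between these counts are not read as results about the members. Signs turned for Gins3 (0.0639, 0.0974 and 0.0639 on TPM), Gins4 (0.28, 0.29 and 0.28 on TPM, 0.0198 without wells 2 and 5, 0.0334 without wells 2, 5 and 6, and -0.197 to 0.00245 leaving out 1 library), Pola2 (-0.105 to 0.0745 leaving out 1 library) and Ccne1 (-0.0171 with voom); the cause was not tested. With a replicate block, 20 members were higher over 12 libraries, where 11.2% of all genes were, and 1 was lower. Over 10 libraries the block gave 20 higher and 1 lower, a fit whose share of all genes is not given here. Pairing by number was not borne out: deviations of same-numbered wells correlated at -0.16 to 0.12, over 0.1 for 1 of 6 pairs, and 0 wild-type wells matched best with their own number. Depth limits the low members most, since in well 2 the median member had 10.5 counts.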

Other observations

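Genes that govern the step before S phase gave mixed values in the same wells. Of the D cyclins, which drive CDK4 and CDK6 in G1, Ccnd1 was at 118, 132 and 153 CPM in ChR2 wells and 40.5, 77.0 and 145 in wild-type wells (change 0.78 ± 0.24, adjusted p = 0.0251 in edgeR) and Ccnd2 at 92.9, 94.9 and 118 against 36.3, 48.5 and 107 CPM (change 0.84 ± 0.22, adjusted p = 0.0128). Both were called, and both differences were larger without wild-type wells 2 and 5, at 1.17 and 1.24. Ccnd3, the D cyclin known to rise as myoblasts differentiate, was at 196, 227 and 264 against 151, 261 and 363 CPM and did not pass (change -0.14 ± 0.17, adjusted p = 0.583). Of the cell cycle inhibitors, Cdkn1a, which encodes p21, fell, from 937, 1253 and 1563 CPM in wild-type wells to 685, 808 and 916 CPM in ChR2 wells, with no overlap (change -0.62 ± 0.15, adjusted p = 0.00690). Cdkn2c, an inhibitor of CDK4 and CDK6, rose (change 0.55 ± 0.16, adjusted p = 0.0201), with overlapping lines. Cdkn2d (change 0.54 ± 0.23, adjusted p = 0.0855), Cdkn1b (change 0.23 ± 0.17, adjusted p = 0.338) and Cdkn1c (change 0.22 ± 0.19, adjusted p = 0.417) did not pass. Cdkn2a and Cdkn2b had 0 counts in every library and were not tested.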
